A study of Rattus norvegicus with 6 samples.

Results

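The 6 genes described here are protein-coding genes of the rat mitochondrial genome whose products sit in the later part of the respiratory chain. Mt-co1, Mt-co2 and Mt-co3 encode the catalytic core of cytochrome c oxidase (complex IV), Mt-cyb encodes the cytochrome b subunit of complex III, and Mt-atp6 and Mt-atp8 encode membrane subunits of ATP synthase. They were taken by Ensembl identifier, and each was kept because the gene length implied by its count, its FPKM and the library total matched the length expected for it within 2% in all 6 hearts. The implied lengths were 1545 bases for Mt-co1 (ENSRNOG00000034234), 684 for Mt-co2 (ENSRNOG00000030371), 784 for Mt-co3 (ENSRNOG00000030700), 1143 for Mt-cyb (ENSRNOG00000031766), 681 for Mt-atp6 (ENSRNOG00000031979) and 204 for Mt-atp8 (ENSRNOG00000033299). All 6 of these genes, out of 21554 identifiers in the series, passed the filter on low counts that left 13895 genes for testing.

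The hearts came from male Sprague-Dawley rats that were 6 to 8 weeks old on arrival. The control group (3 rats, numbered 1, 2 and 3) received citrate buffer, and the model group (3 rats, numbered 3, 4 and 8) received a single intraperitoneal injection of streptozotocin (STZ), a toxin that destroys insulin-producing beta cells, at 65 mg/kg. The hearts were taken 5 months later, when the model rats were labelled as having diabetic cardiomyopathy (DCM), and model rats had entered the study only if their blood glucose showed diabetes. Each rat gave 1 library of heart RNA, the same number in the labels does not mark the same rat, and the comparison asks how gene expression differs in the heart after long-standing chemically induced diabetes.

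Mitochondrial DNA is a small circle transcribed as long polycistronic RNAs, which are cut, largely at the transfer RNAs that lie between genes, into separate messenger RNAs. Mt-atp8 and Mt-atp6 are an exception, since their reading frames overlap and both are carried on a single mature RNA. The proteins of all 6 genes are made by mitochondrial ribosomes and assembled in the inner membrane with many subunits that are encoded in the nucleus. Complex III passes electrons to cytochrome c, complex IV hands them to oxygen, and ATP synthase uses the resulting proton gradient to make ATP. The heart, which works without pause, is among the tissues richest in mitochondria and in these transcripts.

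Library totals were 16617803 to 17948961 counts, and the highest was 1.08 times the lowest. No columns were identical. TMM factors, which correct library totals for differences in composition, were 0.881, 0.971 and 0.886 in control rats 1, 2 and 3 and 1.08, 1.24 and 0.984 in model rats 3, 4 and 8. Of all tested genes, 4873 (35.1%) were called by edgeR at an adjusted p-value under 0.05 (quasi-likelihood test, Benjamini-Hochberg adjustment). P-values of these fits set the difference between the groups against a spread between hearts. That spread is estimated in part from other genes, so it is not the spread of each gene alone. The cardiomyocyte identity of the tissue could not be checked, because 0 of 10 cardiomyocyte markers could be paired with an identifier. In bulk heart RNA, fewer cells of a type and less RNA per cell cannot be told apart, and a share of the library also depends on how much other RNA is present.

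No difference between the groups in any of the 6 genes passed the test. On the TMM scale, in CPM (counts scaled to a library of fixed size), mean levels in the model group were 1.304 times those of the control group for Mt-co2 and 0.799 to 1.11 times for the other 5, and the hearts of the groups were apart for 0 of 6 genes, against 51.8% of all tested genes. By edgeR, 0 of 6 genes had an adjusted p-value under 0.05, against 35.1% of all tested genes. An unadjusted edgeR p-value under 0.05 was found for 0 of 6, against 6482 of the 13895 tested genes. DESeq2 and limma-voom also called 0 of 6, where they called 39.3% and 33.8% of all tested genes. The median log2 fold change of the 6 genes was 0.08, beside a median of 0.076 over all tested genes.

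The 6 genes together took a large part of every library. They held 29.6%, 19.8% and 27.8% of all counts in control rats 1, 2 and 3 and 33.9%, 26.6% and 37.7% in model rats 3, 4 and 8. The mean was 25.8% ± 5.21 (SD, n = 3) in the control group and 32.7% ± 5.66 (SD, n = 3) in the model group, and the groups overlapped, since model rat 4 lay below control rats 1 and 3. After TMM normalization the gap narrowed, and the summed level in the model group was 1.07 times that of the control group. Mt-co1 had more counts than any other gene in each of the 6 hearts. By counts Mt-atp6 and Mt-co3 ranked 2 or 3 in every heart, Mt-cyb ranked 4 to 6 and Mt-co2 ranked 4 to 8, while Mt-atp8 ranked between 563 and 1502.

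**Figure D1:**
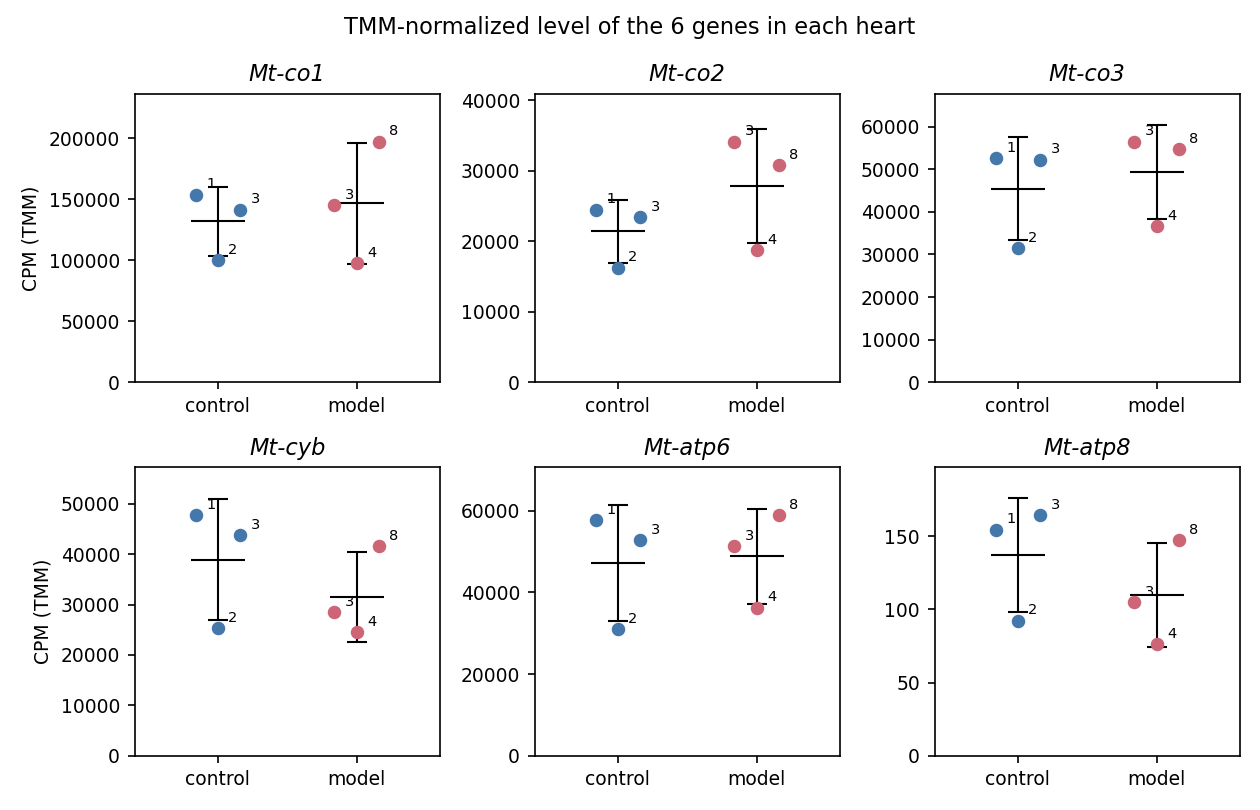
TMM-normalized level of each gene, in CPM, for the 3 control hearts (blue) and 3 model hearts (red). Numbers are the rats, and the bars show mean ± SD. Each axis starts at 0. Control rat 2 and model rat 4 are the lowest of their groups in all 6 panels, and in none of the panels do the groups separate.

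Mt-co1 encodes the subunit of complex IV that holds the site where oxygen is reduced. Its TMM-normalized level was 153793, 100096 and 141352 CPM in control rats 1, 2 and 3 and 144858, 97707 and 197141 CPM in model rats 3, 4 and 8. Model rat 8 had the highest level of the 6 hearts and model rat 4 the lowest, so the model group spanned the control group. Means were 131747 ± 28107 CPM (SD, n = 3) and 146569 ± 49739 CPM (SD, n = 3), and edgeR estimated a log2 fold change of 0.15 ± 0.84 (SE; adjusted p = 0.905). The 95% interval of the fold change reached from 0.297 to 4.16, which covers large differences in both directions. Without control rat 2 the log2 fold change was -0.02, and without model rat 8 it was -0.12.

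Mt-co2 encodes the subunit that takes electrons from cytochrome c. It measured 24463, 16252 and 23404 CPM in control rats 1, 2 and 3 and 34119, 18731 and 30733 CPM in model rats 3, 4 and 8. Model rats 3 and 8 were above all control hearts, but model rat 4 was below control rats 1 and 3. Means were 21373 ± 4466 CPM (SD, n = 3) in the control group and 27861 ± 8086 CPM (SD, n = 3) in the model group. The edgeR estimate on the log2 scale, 0.38 ± 0.55 (SE; adjusted p = 0.613), was the largest of the 6 in size, and its 95% interval as a fold change was 0.550 to 3.09. Each of the 16 alternative fits also gave a log2 fold change above 0, from 0.15 to 0.64, and none of them passed the threshold.

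Mt-co3 encodes the third core subunit of complex IV. Its level was 52672, 31471 and 52289 CPM in control rats 1, 2 and 3 and 56491, 36602 and 54724 CPM in model rats 3, 4 and 8. In both groups a single heart lay well below the other two. By edgeR the log2 fold change came to 0.12 ± 0.64 (SE; adjusted p = 0.905), with a 95% interval of 0.398 to 2.95 as a fold change. It was -0.10 without control rat 2 and -0.05 without model rat 3.

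Mt-cyb encodes the only mitochondrially encoded subunit of complex III. It measured 47768, 25318 and 43735 CPM in control rats 1, 2 and 3 and 28467, 24472 and 41565 CPM in model rats 3, 4 and 8. Control rats 1 and 3 were above every model heart, whereas control rat 2 lay among the model hearts. The mean was 38940 ± 11968 CPM (SD, n = 3) in the control group and 31501 ± 8942 CPM (SD, n = 3) in the model group, or -0.31 ± 0.61 (SE) as a log2 fold change (edgeR adjusted p = 0.722). The 95% interval of the fold change was 0.312 to 2.10.

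Mt-atp6 encodes the subunit that forms part of the proton channel of ATP synthase. Levels were 57663, 31073 and 52872 CPM in control rats 1, 2 and 3 and 51285, 36258 and 58958 CPM in model rats 3, 4 and 8. The groups covered nearly the same range. The estimate by edgeR, 0.05 ± 0.64 (SE) as a log2 fold change (adjusted p = 0.960), was the smallest of the 6 in size, with a 95% interval of 0.375 to 2.85 as a fold change. It was below 0 without control rat 2 (-0.19), without model rat 3 (-0.05), without model rat 8 (-0.11), and when the 6 genes were left out of the scaling (-0.02).

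Mt-atp8 encodes a short subunit of the membrane part of ATP synthase. It measured 155, 92.4 and 165 CPM in control rats 1, 2 and 3 and 105, 76.5 and 147 CPM in model rats 3, 4 and 8. These levels rest on 1589 to 2614 counts per heart, against 279540 or more for each of the other 5 genes. The ranges overlapped, with model rat 8 above control rat 2. By edgeR the gene differed by -0.32 ± 0.30 (SE) as a log2 fold change (adjusted p = 0.422). The 95% interval as a fold change, 0.5001 to 1.28, was the narrowest of the 6 by this tool. In DESeq2 the standard error of Mt-atp8, 0.32, was the largest of the 6. The 16 alternative fits all gave a log2 fold change below 0, from -0.60 to -0.06, with adjusted p-values of 0.171 or more. The frame of Mt-atp8 overlaps that of Mt-atp6. The counting rule for overlapping genes and for nuclear copies of mitochondrial DNA is not given in the sources used here. Counts of Mt-atp8 and Mt-atp6 are therefore uncertain in their absolute size. The part of this uncertainty in their differences between the groups was not tested.

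**Figure D2:**
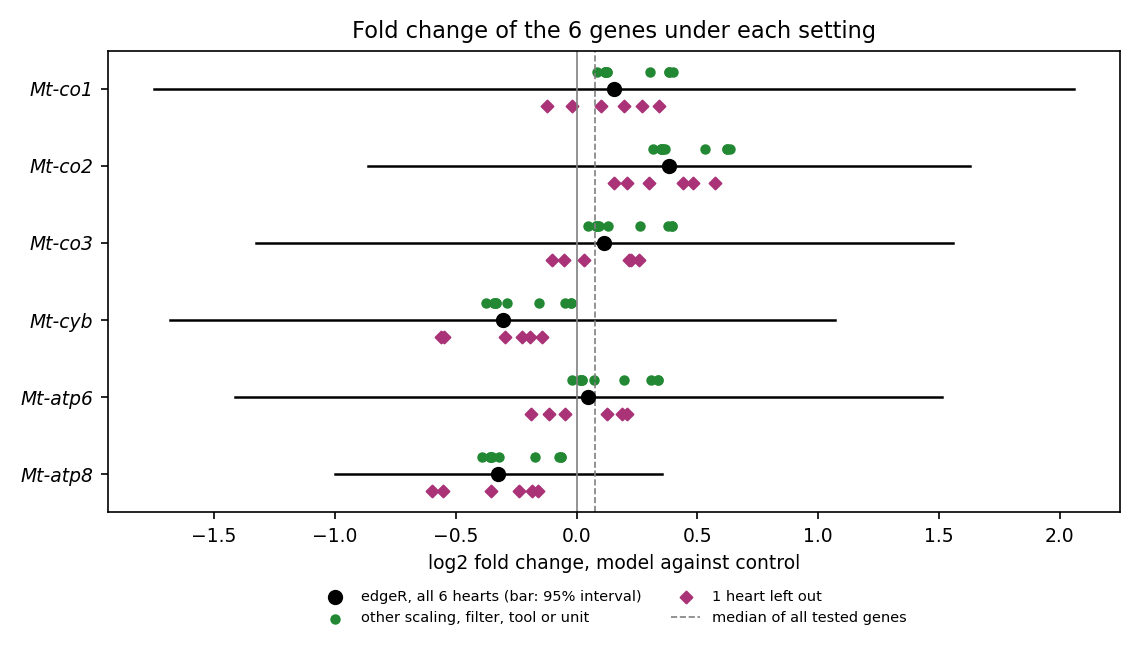
Log2 fold change (model against control) of each gene. Black points and bars are edgeR's estimate on all 6 hearts with its 95% interval, green points are the 10 other scalings, filters, tools and units, purple diamonds are the 6 fits with 1 heart left out, and the dashed line is the median of all tested genes (0.076). Mt-co2 lies above 0 and Mt-cyb and Mt-atp8 below 0 at every point, and every bar crosses 0.

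Control rat 2 had the lowest level of the control group in 6 of 6 genes, and model rat 4 the lowest of the model group in 6 of 6. The genes therefore varied together between hearts. On log2 TMM CPM over the 6 hearts, Pearson correlations between members ran up to 0.971, for Mt-cyb with Mt-atp8, and down to 0.436, for Mt-co2 with Mt-cyb. Mt-co3 and Mt-atp6 were correlated at 0.968. These values are a description of 6 points that share library scaling. The highest control heart was 1.51 to 1.89 times the lowest control heart, and the highest model heart 1.54 to 2.02 times the lowest model heart, depending on the gene.

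The spread allowed for these genes depended on the tool. For the 5 abundant genes the standard error of the log2 fold change was 0.55 to 0.84 in edgeR and 0.28 to 0.31 in DESeq2. Even in DESeq2, with smaller errors for the 5 abundant genes, the lowest adjusted p-value was 0.340, for Mt-co2, at a log2 fold change of 0.35.

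As a share of the library, without TMM, Mt-co2 was the only gene of the 6 whose groups did not overlap. It took 2.15%, 1.58% and 2.07% of counts in control rats 1, 2 and 3 and 3.67%, 2.33% and 3.02% in model rats 3, 4 and 8. The lowest model heart exceeded the highest control heart, the margin lying between model rat 4 and control rat 1. The mean share was 1.93% ± 0.312 (SD, n = 3) in the control group and 3.01% ± 0.672 (SD, n = 3) in the model group (exact permutation, two-sided: p = 0.1, below which 3 hearts against 3 cannot go, and 0.45 after adjustment over the 6 genes). Among all tested genes, 52.1% did not overlap on this measure, so 1 of 6 is below the background. On the TMM scale the groups overlapped for Mt-co2 as well.

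The shares of the other genes were less separated. Mt-co1 took 13.5%, 9.72% and 12.5% of counts in control rats 1, 2 and 3 and 15.6%, 12.1% and 19.4% in model rats 3, 4 and 8, with only model rat 4 below the highest control heart. Mt-co3 took 4.11% ± 0.912 (SD, n = 3) in the control group and 5.34% ± 0.766 (SD, n = 3) in the model group, and Mt-atp6 took 4.26% ± 1.09 and 5.27% ± 0.680 (SD, n = 3 each). For each of these 3 genes the two-sided exact permutation test gave p = 0.3 (0.45 after adjustment over the 6). For Mt-cyb the shares were 3.51% ± 0.929 and 3.40% ± 0.598 (SD, n = 3 each; exact permutation p = 0.9), and for Mt-atp8 they were 0.0124% ± 0.0030 and 0.0118% ± 0.0025 (SD, n = 3 each; exact permutation p = 0.9). These differences rested in part on single hearts. Without model rat 8 the difference in the Mt-co1 share was 1.94 percentage points in place of 3.78, and without control rat 2 those of Mt-co3 and Mt-atp6 were 0.701 in place of 1.23 and 0.393 in place of 1.01.

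Levels of different genes were compared per length, on the FPKM scale. Mt-co1 was the highest gene in all 6 hearts, followed by Mt-atp6 and then Mt-co3. In the control group the means were 77188 FPKM for Mt-co1, 62536 for Mt-atp6, 52396 for Mt-co3, 30729 for Mt-cyb, 28286 for Mt-co2 and 607 for Mt-atp8. In the model group they were 101633 for Mt-co1, 77430 for Mt-atp6, 68049 for Mt-co3, 43954 for Mt-co2, 29716 for Mt-cyb and 577 for Mt-atp8. The order of Mt-co1, Mt-atp6 and Mt-co3 held in each of the 6 hearts, although the ranges of these neighbours over hearts overlapped in both groups. Within a heart, Mt-co1 was 1.18 to 1.42 times Mt-atp6 in the control group and 1.19 to 1.47 times in the model group, and Mt-atp6 was 1.14 to 1.26 and 1.05 to 1.24 times Mt-co3. Mt-co3 was apart from the gene below it, with no overlap of ranges, in both groups.

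The order of Mt-cyb and Mt-co2 was not the same in the groups. Mt-cyb was above Mt-co2 in 2 of 3 control hearts, and Mt-co2 was above Mt-cyb in 3 of 3 model hearts. The FPKM ratio of Mt-co2 to Mt-cyb was 0.856, 1.07 and 0.894 in control rats 1, 2 and 3. It was 2.003, 1.28 and 1.24 in model rats 3, 4 and 8, so the groups did not overlap (exact permutation, two-sided: p = 0.1, the lowest possible, and 0.1875 after adjustment over 15 pairs). Such separation is common in these data, since the ratios of 50.0% of all gene pairs, and of 70.9% of pairs among the 100 most abundant genes, did not overlap either. Model rat 3 stood above the other model hearts in this ratio.

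**Figure D3:**
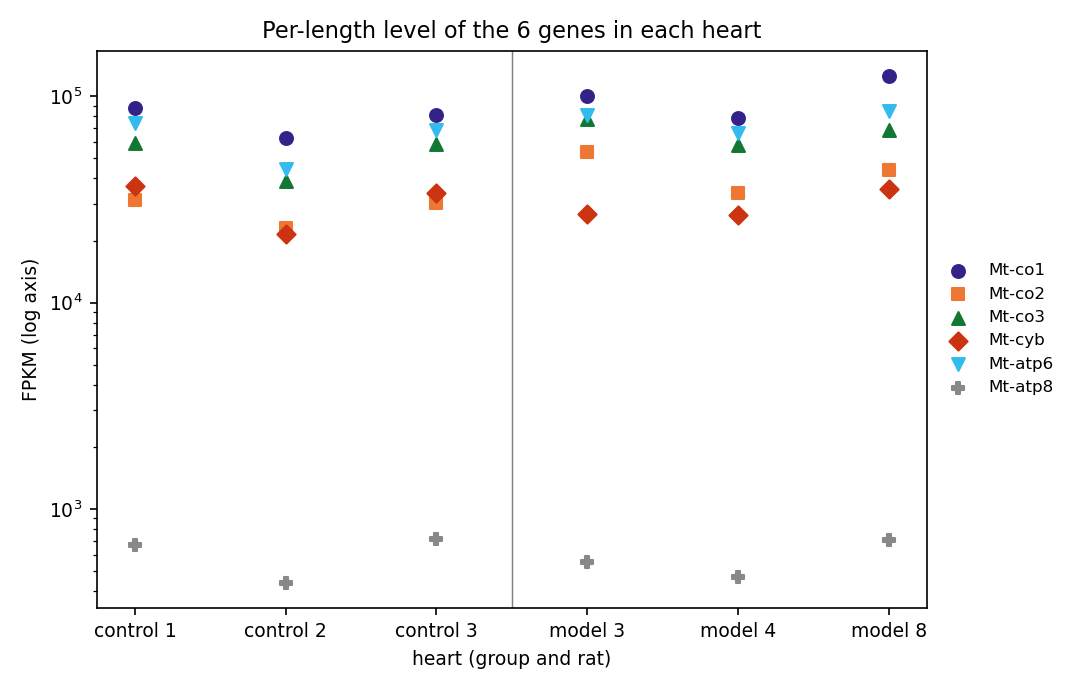
FPKM (log axis), a level per gene length, of the 6 genes in each heart. Mt-co1 is highest in every heart, Mt-co2 (squares) lies near Mt-cyb (diamonds) in the control hearts and above it in the 3 model hearts, and Mt-atp8 lies far below the others.

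Mt-atp8 was far below the other genes per length. The FPKM of Mt-atp6, which shares its mature RNA, was 112, 101 and 96.3 times that of Mt-atp8 in control rats 1, 2 and 3 and 146, 142 and 120 times in model rats 3, 4 and 8. The groups did not overlap in this ratio, as was the case for 50.0% of all gene pairs and 70.9% of pairs among the 100 most abundant genes. The difference in this ratio had p = 0.1 by exact permutation (two-sided, the lowest possible), and 0.1875 after adjustment over 15 pairs. The uncertainty about counts in the overlap of these genes applies to both groups, and its part in the result was not tested.

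To compare the genes without any scaling between libraries, each was expressed as a share of the 6-gene total in its own heart. Mt-co1 made up 46.6% ± 2.12 of that total in the control group and 47.7% ± 3.25 in the model group (SD, n = 3 each). Mt-cyb had a smaller share in the model group, at 14.2%, 12.4% and 13.9% in control rats 1, 2 and 3 and 9.03%, 11.4% and 10.8% in model rats 3, 4 and 8. All model hearts were below all control hearts for this gene, and the mean share differed by -3.07 percentage points. Mt-co2 had a larger share, at 7.27%, 7.95% and 7.46% in control rats 1, 2 and 3 and 10.8%, 8.76% and 8.02% in model rats 3, 4 and 8. Here the groups were apart by a narrow margin, between control rat 2 and model rat 8.

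Mt-atp8 also had a smaller share of the 6-gene total in the model group. Its share was 0.0460%, 0.0452% and 0.0524% in control rats 1, 2 and 3 and 0.0334%, 0.0358% and 0.0384% in model rats 3, 4 and 8, again without overlap. For Mt-cyb, Mt-co2 and Mt-atp8 the two-sided exact permutation test gave p = 0.1, the smallest possible (0.2 after adjustment over the 6 genes). Mt-co3 (15.9% ± 0.667 and 16.4% ± 1.91; SD, n = 3 each) and Mt-atp6 (16.4% ± 1.04 and 16.2% ± 0.788; SD, n = 3 each) overlapped between the groups. Thus 3 of 6 genes did not overlap, and these shares are not independent, since they are parts of the same whole. When the counts of all tested genes were divided by the same 6-gene total, 27.6% did not overlap. That figure is not a like comparison, because each member is part of the total and varied with it. The number of separated shares is therefore no result about these genes. When hearts were left out singly, the difference in share stayed between -3.63 and -2.36 percentage points for Mt-cyb and between 0.828 (without model rat 3) and 2.23 for Mt-co2.

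**Figure D4:**
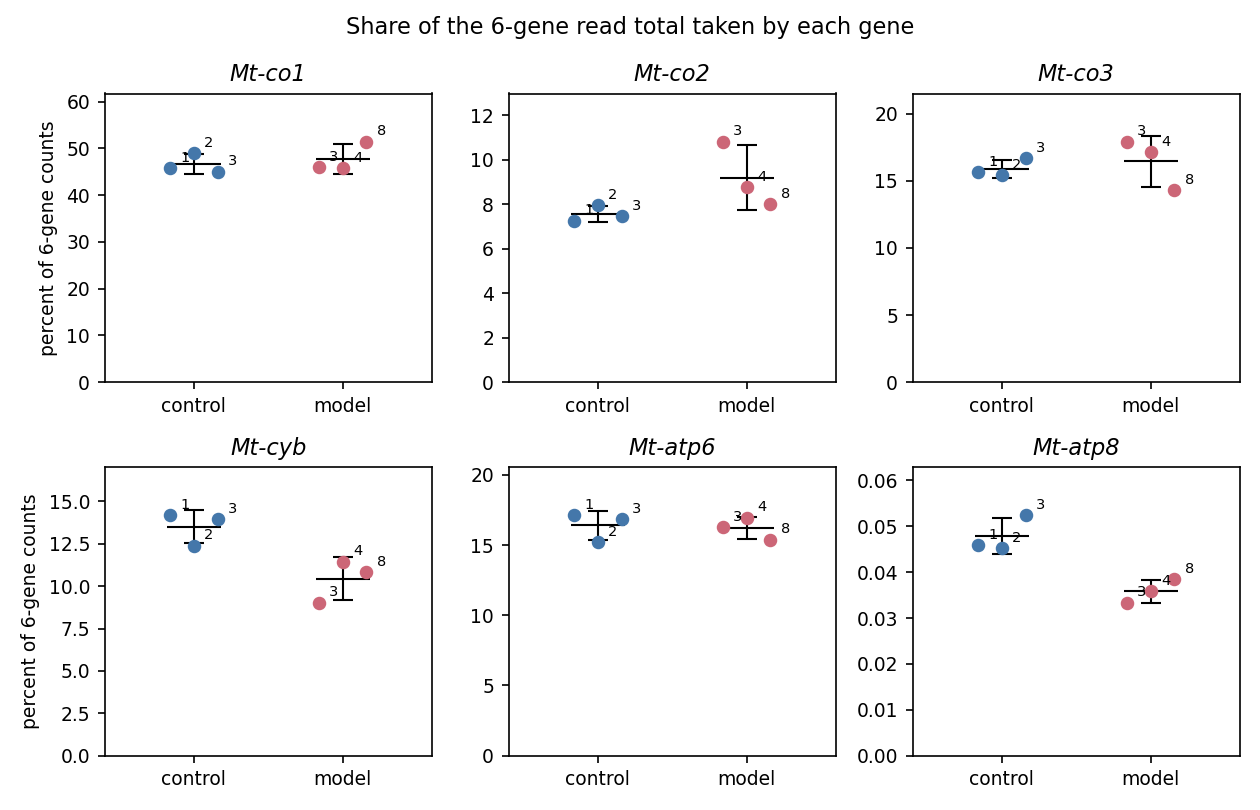
Share of the counts of all 6 genes taken by each gene (percent), for the 3 control hearts (blue) and 3 model hearts (red), with mean ± SD and axes that start at 0. Mt-cyb and Mt-atp8 lie lower in all model hearts, Mt-co2 lies higher in all model hearts by a narrow margin, and the other 3 genes overlap.

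Among all pairs of tested genes, 50.0% had ratios that did not overlap between the groups, and among pairs of the 100 most abundant genes 70.9% did not. Of the 15 pairs of the 6 genes, 8 did not overlap (53.3%), a share near the first background and below the second, so the number of separated pairs is no result about these genes. The 8 pairs, given as a description chosen after the values were seen and with no test, were those that join 1 of Mt-co1, Mt-co2, Mt-co3 and Mt-atp6 with Mt-cyb or Mt-atp8.

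The mean FPKM ratio of Mt-co2 to Mt-atp8 was 47.4 ± 5.02 in the control group and 77.3 ± 17.6 in the model group (SD, n = 3 each), or 1.63 times as high. The ratio of Mt-co1 to Mt-cyb was 2.57 ± 0.311 and 3.41 ± 0.414 (SD, n = 3 each), or 1.33 times as high. The most even ratio among control hearts was that of Mt-cyb to Mt-atp6, at 0.494, 0.485 and 0.493, and in model rats 3, 4 and 8 it was 0.331, 0.402 and 0.420. Mt-cyb and Mt-atp8 kept a similar ratio to each other in both groups, at 50.5 ± 4.08 and 51.9 ± 4.57 (SD, n = 3 each). Within complex IV, the ratio of Mt-co1 to Mt-co2 ranged from 2.67 to 2.78 among control hearts. It was 1.88, 2.31 and 2.84 in model rats 3, 4 and 8, so model rat 8 lay above the control hearts and the other model hearts below them.

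**Figure D5:**
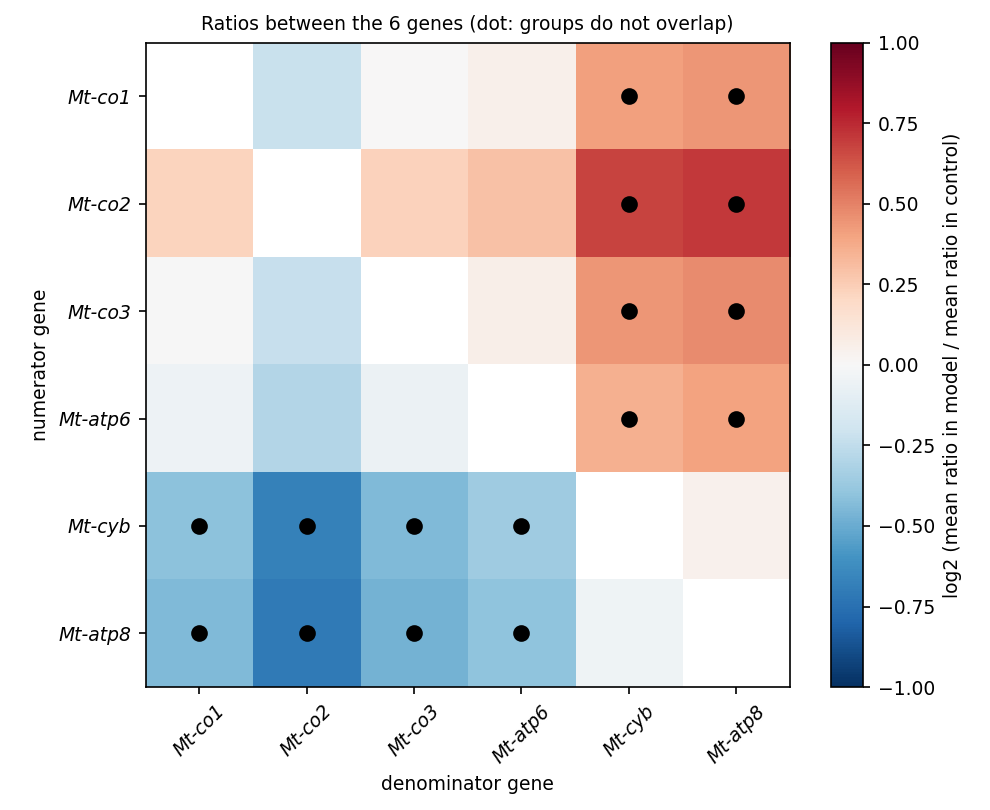
Log2 of the mean FPKM ratio in the model group over that in the control group, for each pair of the 6 genes (row gene over column gene). Dots mark the pairs whose hearts do not overlap between the groups, as 50.0% of all gene pairs do not. The 8 such pairs, each drawn in both directions, are those that join Mt-co1, Mt-co2, Mt-co3 or Mt-atp6 with Mt-cyb or Mt-atp8.

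Among 4135 other genes whose log2 CPM averaged 5 or more, the pattern most like the mean of the 6 members over the 6 hearts was that of ENSRNOG00000031053 (Pearson r = 0.973 on log2 TMM CPM), followed by ENSRNOG00000029707 (r = 0.963). Neither identifier is paired with a symbol in the tables used here. Like the members, ENSRNOG00000029707 was lowest of its group in control rat 2 (19887 CPM) and model rat 4 (22660 CPM). It was highest in model rat 8 (44780 CPM), as were Mt-co1 and Mt-atp6 but not the other members. The log2 fold change of ENSRNOG00000029707 was 0.18 (edgeR adjusted p = 0.836), and that of ENSRNOG00000031053 was -0.14 (edgeR adjusted p = 0.819).

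The nuclear genes that work with these subunits could not be followed. Of the listed nuclear subunits, 0 of 9 for complex III, 0 of 13 for complex IV and 0 of 17 for ATP synthase were paired with an identifier, and neither were any of 7 mitochondrially encoded complex I subunits or any of 10 factors of mitochondrial transcription and RNA stability. Markers of other cell types were paired for 5 of 7 endothelial genes and 1 of 5 macrophage genes, and for 0 of 5 fibroblast and 0 of 5 smooth muscle and pericyte genes. The source of these names lists higher genes alone, so these counts are no test of cell makeup.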

How the data were processed

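Heart RNA of 3 control and 3 model rats was extracted with TRIzol, prepared with the NEBNext Ultra kit and sequenced on an Illumina NovaSeq. Whether RNA was selected by poly(A) or depleted of ribosomal RNA, and whether strand was kept, is not given in the sources used here. The submitters' processing notes name HISAT2 2.0.5, StringTie 1.3.3b and the build mRatBN7.2. The authors deposited raw read counts per Ensembl gene, and FPKM values that the authors made from the same counts with 1 length per gene and the library total. Groups came from the disease state in the labels, and columns were matched to samples by title.

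Counts of all genes were tested with edgeR 4.0.16 in R 4.3.3 (filterByExpr, TMM, quasi-likelihood test, no covariate, Benjamini-Hochberg adjustment), with a call at an adjusted p-value under 0.05. Standard errors are the log2 fold change over the square root of F. DESeq2 1.42.0, the tool of the methods, and limma 3.58.1 were alternatives, with other scalings, no filter on low counts, FPKM on the log2(FPKM + 1) and log2(FPKM + 0.1) scales, and each heart left out in turn. Shares and ratios were compared by exact permutation (scipy 1.17.1, Python 3.11.15). The procedure was tested on simulated data.

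The genes, lists and tests were chosen with earlier results of these data known. The text names the 6 genes and, as closest in pattern, 2 of the 5 most correlated genes, the number of unpaired identifiers that may be printed. Symbols for the pathway lists (nuclear subunits of complexes III and IV and ATP synthase, complex I, mitochondrial transcription) and cell markers could come only from a partial list of higher genes in the paper's supplement (1283 rows), and a list was void with under 80% of its members paired, which was the case for 10 of 10. The reference tables used here hold no sequence for these genes, so none is printed. At these depths counting error is small for the 6 genes, and 3 rats per group limit the precision.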

Additional observations from a re-analysis of the deposited data

How the results depend on the processing

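None of the 6 genes was called in any of the 102 fits of a member (6 genes under 17 settings), and the lowest unadjusted p-value was 0.085. Of the 96 alternative fits, 88 kept the direction and 8 turned it. Leaving the 6 genes out of the scaling gave a log2 fold change of -0.0202 for Mt-atp6. When hearts were left out singly, the log2 fold change ran from -0.12 to 0.34 for Mt-co1 (below 0 without control replicate 2 and without model replicate 8), from -0.10 to 0.26 for Mt-co3 (below 0 without control replicate 2 and without model replicate 3) and from -0.19 to 0.21 for Mt-atp6 (below 0 without control replicate 2, model replicate 3 and model replicate 8). The number of genes called in the whole table ran from 2609 to 4865 over these fits, with 2636 without control replicate 2 and 2609 without control replicate 3. The cause was not tested. Scaling by library totals alone shifted the median of all tested genes from 0.076 to 0.345. Set against the median of all tested genes within each setting, Mt-co2 was above it in 17 of 17 settings. Mt-co1 was above it in 15, Mt-co3 in 13, Mt-atp6 in 6, and Mt-cyb and Mt-atp8 in 0 of 17. Set against library totals without the 6 genes, the difference in share grew by construction to 7.51 percentage points for Mt-co1, 1.89 for Mt-co2, 2.40 for Mt-co3 and 2.11 for Mt-atp6, and turned from -0.116 to 0.309 for Mt-cyb and from -0.0006 to 0.0009 for Mt-atp8. With single hearts left out, the difference in library share ran from 1.94 to 5.56 points for Mt-co1, 0.740 to 1.41 for Mt-co2, 0.701 to 1.62 for Mt-co3 and 0.393 to 1.42 for Mt-atp6, and it changed sign for Mt-cyb (-0.643 to 0.232) and Mt-atp8 (-0.0023 to 0.0005). Counted in FPKM, the difference in the Mt-atp8 share of the 6-gene total was -0.0614. No paired analysis was possible because 3 is the sole number found in both groups and it names separate rats.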

Other observations

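The 20 most abundant identifiers other than the 6 genes held in sum 19.3%, 16.9% and 18.4% of counts in control rats 1, 2 and 3 and 11.9%, 11.3% and 14.7% in model rats 3, 4 and 8. The model hearts were all below the control hearts on this share, while the share of the 6 genes was higher in the mean and overlapped. Both shares are parts of the same library total, so they are not independent. Taken singly, 52.1% of all tested genes did not overlap between the groups in their share of the library, which is not a like comparison for a sum of 20. The 20 were chosen by their mean count over all 6 hearts, their names are not paired in the tables used here, and the difference was not tested.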
